A study of Mus musculus with 8 samples.

Results

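The genes described here encode the subunits of the mitochondrial respiratory chain and of ATP synthase that are made from nuclear DNA. They were chosen by symbol in the probe annotation of the array: every gene whose symbol starts with Nduf (other than Ndufaf), Uqcr, Atp5 or Cox4 to Cox8, together with Sdha, Sdhb, Sdhc, Sdhd, Cyc1 and Cycs. This gave 81 of the 12393 genes measured, each by the probe set with the highest mean over the 8 arrays. They comprised 34 genes of complex I, 4 of complex II, 9 of complex III, 16 of complex IV, 17 of complex V and the cytochrome c gene Cycs. A further 3 genes, Ndufa11, Ndufb4 and Ndufs6, were found only on probe sets annotated with several symbols and were left out.

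Total RNA was hybridised to 8 Affymetrix arrays. There were 4 sarcomas of genotype Braf Ca/Ca; p53 Fl/Fl (numbered 1, 2, 3 and 5), 2 sarcomas of genotype Braf Ca/+; p53 Fl/Fl (numbered 1 and 2), 1 muscle of genotype Braf Ca/Ca; p53 Fl/Fl and 1 muscle of genotype Braf Ca/+; p53 Fl/Fl. All mice, those that gave muscle included, thus carried at least 1 Ca allele of Braf and floxed p53 alleles. Tumours were started by injecting an adenovirus that expresses Cre, so recombination is limited to cells the virus reached, and muscle came from a hind limb without a tumour (the labels give no ages). Whether each array stands for its own animal is not stated, so p-values reflect how far these arrays differ among themselves, some of which may be technical.

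The respiratory chain passes electrons through complexes I to IV of the inner mitochondrial membrane and pumps protons, and ATP synthase (complex V) uses the proton gradient to make ATP. Complex I oxidises NADH and complex II, succinate dehydrogenase, oxidises succinate. Complex III passes the electrons to cytochrome c, which carries them to complex IV, cytochrome c oxidase. Skeletal muscle is rich in mitochondria. Its complex IV contains muscle forms of some small subunits (Cox6a2, Cox7a1 and Cox8b) in place of the common forms that most tissues make (Cox6a1, Cox7a2 and Cox8a).

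The promoters of these paired forms are shown because the pairs gave both the largest differences and some of the smallest in complex IV. RefSeq (assembly GRCm38.p6) gave a window of 250 bases before to 50 bases after the annotated start for 66 of the 81 genes. Cox6a2 was among those without a window. The other 5 windows of the paired forms are printed here, each read 5′ to 3′ on the strand of its gene. Cox7a1 lies at chr7:30183921-30184220 (plus strand), Cox8b at chr7:140900397-140900696 (minus strand), Cox6a1 at chr5:115348909-115349208 (minus strand), Cox7a2 at chr9:79759804-79760103 (minus strand) and Cox8a at chr19:7217567-7217866 (minus strand). Capitals mark matches, on either strand, to 5 motifs: CAGCTG (the E-box of myogenic factors, the same on both strands), TATAAA (the TATA box), AAGGTCA (oestrogen-related receptors), GCATGCGC (nuclear respiratory factor 1) and CCGGAAG (ETS factors, including GABP).
Cox7a1: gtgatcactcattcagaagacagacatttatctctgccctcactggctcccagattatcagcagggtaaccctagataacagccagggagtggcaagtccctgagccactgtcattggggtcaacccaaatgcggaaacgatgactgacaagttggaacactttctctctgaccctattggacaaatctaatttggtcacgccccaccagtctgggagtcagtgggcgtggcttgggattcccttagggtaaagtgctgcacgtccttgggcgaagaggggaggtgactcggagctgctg
Cox8b: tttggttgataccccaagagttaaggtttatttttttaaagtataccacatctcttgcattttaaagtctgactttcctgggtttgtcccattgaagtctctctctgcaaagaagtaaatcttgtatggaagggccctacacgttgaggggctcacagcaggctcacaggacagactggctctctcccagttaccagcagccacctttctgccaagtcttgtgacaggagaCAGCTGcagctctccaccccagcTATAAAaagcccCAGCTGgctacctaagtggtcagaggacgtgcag
Cox6a1: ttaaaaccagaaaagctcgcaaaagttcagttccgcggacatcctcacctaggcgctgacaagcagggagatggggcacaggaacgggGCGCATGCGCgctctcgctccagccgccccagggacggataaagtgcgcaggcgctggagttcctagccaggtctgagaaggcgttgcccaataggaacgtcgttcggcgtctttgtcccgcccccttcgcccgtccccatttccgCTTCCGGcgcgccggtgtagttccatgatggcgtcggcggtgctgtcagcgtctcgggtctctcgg
Cox7a2: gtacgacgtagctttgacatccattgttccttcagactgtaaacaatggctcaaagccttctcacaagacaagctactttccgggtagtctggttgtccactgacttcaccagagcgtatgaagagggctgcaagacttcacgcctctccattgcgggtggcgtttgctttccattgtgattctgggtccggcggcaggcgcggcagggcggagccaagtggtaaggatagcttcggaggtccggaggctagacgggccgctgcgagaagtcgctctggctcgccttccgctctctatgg
Cox8a: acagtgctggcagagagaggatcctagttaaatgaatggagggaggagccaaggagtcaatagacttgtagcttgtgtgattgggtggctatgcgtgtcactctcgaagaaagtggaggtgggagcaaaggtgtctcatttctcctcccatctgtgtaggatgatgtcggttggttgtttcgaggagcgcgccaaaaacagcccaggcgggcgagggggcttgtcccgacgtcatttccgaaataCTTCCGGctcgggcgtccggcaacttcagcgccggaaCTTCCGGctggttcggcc

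Among the muscle forms, the Cox8b window held 2 E-boxes, 1 TATA box and 2 CG dinucleotides, and the Cox7a1 window held 7 CG dinucleotides and no match to any of the 5 motifs. Among the common forms, the Cox6a1 window held 2 overlapping matches for nuclear respiratory factor 1, 1 ETS match and 32 CG dinucleotides. The Cox8a window held 2 ETS matches and 19 CG dinucleotides, and the Cox7a2 window held 20 CG dinucleotides and no match. Over the 71 windows of the 66 genes, 5 of which had several windows, 14.1% held the nuclear respiratory factor 1 motif, against 2.71% of all 32851 windows of the table, and 23.9% held the ETS motif, against 8.86%. The receptor motif was in 9.86% of the subunit genes' windows against 4.72% of all, the E-box in 8.45% against 16.3%, and the TATA box in 11.3% against 13.6%. The median number of CG dinucleotides was 19 in the subunit genes' windows and 7 in all. These shares describe letters in the windows and were not tested.

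Deposited values are log2 levels, and a difference is the mean of the 6 sarcomas minus the mean of the 2 muscles on that scale, so a difference of -1 is a level at 50% of muscle. Adjusted p-values come from limma, adjusted by the Benjamini-Hochberg method over the 12393 genes, and genes past 0.05 are said to have risen or fallen. The number of arrays limits the precision. In RNA from whole tissue, fewer cells of a type and less RNA per cell cannot be told apart. The level of Braf, 4.45 to 5.07 in sarcomas against 4.50 in Ca/Ca muscle and 4.62 in Ca/+ muscle, is no check of the labels, because the position of its probe set on the Ca allele is not known here.

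The muscles differed from each other before any comparison with sarcoma. The 13 muscle fibre markers averaged 6.89 to 9.08 in the sarcomas, against 12.45 in Ca/Ca muscle and 12.56 in Ca/+ muscle, and all 13 fell in sarcoma. The 7 adipocyte markers averaged 5.39 to 7.21 in the sarcomas, against 9.51 in Ca/Ca muscle and 11.11 in Ca/+ muscle, and all 7 fell, of which Adipoq (adjusted p = 0.125) and Fabp4 (0.0651) were lost without the Ca/+ muscle. Ucp1, the uncoupling protein of brown fat, another tissue rich in mitochondria, was at 3.71 to 8.10 in the sarcomas, against 4.59 in Ca/Ca muscle and 10.48 in Ca/+ muscle. Of 5 brown fat markers, averaging 4.27 to 5.09 in sarcomas, against 4.87 and 7.22 in Ca/Ca and Ca/+ muscle, 1 fell, Cidea, and it did not pass without the Ca/+ muscle (adjusted p = 0.0667). Dio2 alone of the 5 was lower in the Ca/+ muscle (4.10) than in the Ca/Ca muscle (5.69).

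Calls on the remaining markers rested on the Ca/+ muscle in part. Fibroblast markers (8 genes) averaged 10.37 to 11.31 in sarcomas, against 11.28 in Ca/Ca muscle and 10.51 in Ca/+ muscle. Of these only Vim rose, which did not pass without the Ca/+ muscle (adjusted p = 0.191). Under housekeeping centring, ribosomal protein centring and cyclic loess, 0 fibroblast markers rose and 2, 1 and 2 fell. The 8 macrophage markers averaged 9.66 to 10.96 in sarcomas, against 10.28 in Ca/Ca muscle and 8.95 in Ca/+ muscle. Of these Cd68 and Ms4a7 rose, but leaving out the Ca/+ muscle ended both calls (adjusted p = 0.443 for Cd68, 0.401 for Ms4a7), and 0 rose under the 3 other scalings. The median difference of the macrophage list was 0.81 with both muscles and 0.19 without the Ca/+ muscle. Of the endothelial markers 4 of 5 fell, and Cdh5 among them did not pass without the Ca/Ca muscle (0.0929) or the Ca/+ muscle (0.171). Of the genes of cycling cells 3 of 4 rose (Cdk1, Birc5 and Top2a). Without the Ca/+ muscle none of these 3 passed, and Top2a did not pass without the Ca/Ca muscle either. The list's median difference was 2.51 with both muscles and 1.76 without the Ca/+ one. The part of each of these cell types in the results below was not tested.

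Most subunit genes were lower in sarcoma. Of the 81 genes, 63 fell (77.8%), 0 rose and 18 did not pass, where 13.2% of all genes tested fell and 13.1% rose. The median difference was -0.93, which is 52.5% of the muscle level, against 0.03 over all genes, and the middle of the distribution was narrow, with quartiles at -1.22 and -0.63. A fall of 2-fold or more was seen for 34 genes (42%, against 8.43% of all genes). In 69 genes (85.2%) all 6 sarcomas lay below both muscles, against 19% of all genes. Of the falls, 36 passed in every fit without 1 array. Without the Ca/Ca muscle 48 subunit genes fell (59.3%, against 10.4% of all genes), with a median difference of -0.99. Without the Ca/+ muscle 36 fell (44.4%, against 6.64% of all genes), with a median of -0.82. With Ca/Ca arrays alone 14 fell (17.3%, against 4.12% of all genes), and with Ca/+ arrays alone 12 did (14.8%, against 5.61%).

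**Figure D1:**
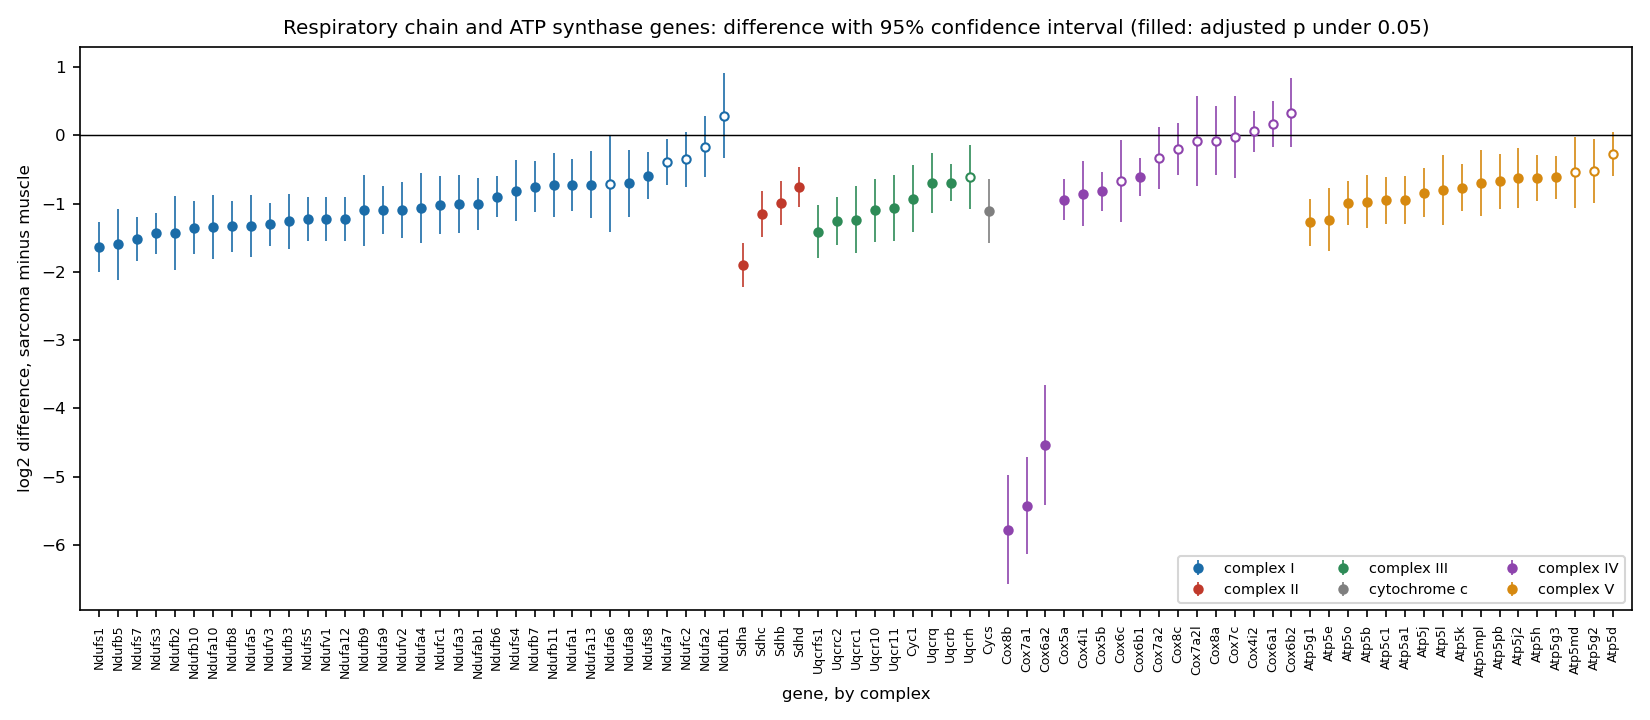
Log2 difference, sarcoma minus muscle, for each of the 81 genes, grouped by complex and ordered within it, with 95% confidence intervals from limma. Filled points passed the adjusted p of 0.05 and open points did not. Most genes lie between -0.5 and -2, Cox8b, Cox7a1 and Cox6a2 lie below -4, and the open points near 0 are mostly of complex IV.

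All 4 genes of complex II fell, with a median of -1.07, and each passed in every fit without 1 array. Sdha, the flavoprotein that oxidises succinate, was at 8.95 to 9.30 in the sarcomas (median 9.13), against 10.89 in Ca/Ca muscle and 11.12 in Ca/+ muscle. The 2 groups stood well apart, with an SD of 0.14 in sarcomas. On the probe sets used, the fall by 1.90 (SE 0.14, 3.73-fold, adjusted p = 6.58e-05) was the largest outside the muscle forms of complex IV. A further probe set of Sdha gave -1.35, so this rank depends on the probe set. Sdhb, the iron-sulphur subunit, averaged 10.57 ± 0.14 in sarcomas (SD, n = 6) and 11.56 ± 0.15 in muscles (SD, n = 2). It fell by 0.99 (adjusted p = 0.00175). Of the membrane anchors, Sdhc fell by 1.16 (adjusted p = 0.00107) and Sdhd by 0.75 (adjusted p = 0.00375). All 6 sarcomas lay below both muscles for each of the 4 genes.

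In complex I, 29 of 34 genes fell and 5 did not pass, with a median of -1.08. The 6 core subunits, which belong to the catalytic heart of the complex, all fell, with a median of -1.33, and 23 of the 28 accessory subunits fell, with a median of -1.02. Ndufs1, the largest iron-sulphur subunit, was at 8.17 to 8.63 in sarcomas (median 8.46), against 9.98 in Ca/Ca muscle and 10.16 in Ca/+ muscle. Its fall by 1.64 (SE 0.16, 3.11-fold, adjusted p = 0.000288) was the largest of the complex on the probe sets used. No sarcoma came within 1 log2 unit of a muscle for Ndufs1. Ndufs7, which holds an iron-sulphur cluster near the ubiquinone site, was at 9.38 to 9.70 in sarcomas (median 9.52), against 10.94 in Ca/Ca muscle and 11.15 in Ca/+ muscle. It fell by 1.52 (SE 0.14, 2.87-fold, adjusted p = 0.00022). The NADH-binding flavoprotein gene Ndufv1 fell by 1.22 (adjusted p = 0.000631), Ndufv2 fell by 1.09 and Ndufs3 fell by 1.43. Ndufs8 had the smallest fall of the core, 0.59 (adjusted p = 0.0221), and did not pass without the Ca/Ca muscle (adjusted p = 0.0773) or the Ca/+ muscle (0.171).

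Among the accessory subunits, Ndufb5 in the membrane arm had the largest fall. It was at 9.66 to 10.53 in sarcomas (median 10.08), against 11.68 in Ca/Ca muscle and 11.71 in Ca/+ muscle, a fall by 1.59 (SE 0.23, 3.02-fold, adjusted p = 0.00179). The 5 that did not pass were Ndufa6 (-0.71, adjusted p = 0.13), Ndufa7 (-0.39, 0.0814), Ndufc2 (-0.35, 0.188), Ndufa2 (-0.17, 0.579) and Ndufb1 (0.29, 0.493). For Ndufa6 and Ndufa7 all 6 sarcomas still lay below both muscles. Ndufa6 was wide within sarcoma (9.58 to 10.75, SD 0.46), and without Ca/Ca sarcoma 3 it passed. Ndufb1 was at 7.78 in Ca/Ca sarcoma 3 and at 6.61 to 7.08 in the other sarcomas, against 6.77 in Ca/Ca muscle and 6.71 in Ca/+ muscle, so the groups overlapped, and its sign turned under housekeeping centring (-0.10).

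Within complex I, 11 of the 29 falls were lost without 1 array, 6 of them without the Ca/Ca muscle and all 11 without the Ca/+ muscle. These were Ndufb9, Ndufa4, Ndufc1 and Ndufa3, at -1.10 to -1.005, then Ndufs4, Ndufb7, Ndufb11, Ndufa1, Ndufa13 and Ndufa8, at -0.81 to -0.71, and Ndufs8. The protein of Ndufa4, counted here by its symbol, has since been placed in complex IV. Ndufa8 (-0.71), Ndufa13 (-0.72) and Ndufb11 (-0.73) were also lost without several single sarcomas, with adjusted p-values of 0.0406, 0.0386 and 0.0305 over all 8 arrays.

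In complex III, 8 of 9 genes fell, with a median of -1.07, and all 6 sarcomas lay below both muscles for all 9. Uqcrfs1, the Rieske iron-sulphur protein, was at 9.18 to 9.69 in sarcomas (median 9.43), against 10.79 in Ca/Ca muscle and 10.90 in Ca/+ muscle. It fell by 1.41 (SE 0.17, 2.66-fold, adjusted p = 0.000813), the most of the complex on the probe sets used. The core proteins followed, with Uqcrc2 at -1.25 (adjusted p = 0.000799) and Uqcrc1 at -1.23 (0.00403). Cyc1, the cytochrome that hands electrons on to cytochrome c, averaged 10.09 ± 0.28 in sarcomas (SD, n = 6) and 11.02 ± 0.27 in muscles (SD, n = 2). Its fall by 0.93 (adjusted p = 0.0145) did not hold without the Ca/+ muscle (0.16). The smallest differences were those of the small subunits Uqcrq (-0.70), Uqcrb (-0.70) and Uqcrh, the hinge protein, which did not pass (-0.61, adjusted p = 0.059). A dimmer probe set of Uqcrb, at 8.22 in sarcomas and 9.81 in muscles, differed by -1.60. The place of Uqcrb in the complex thus depends on the probe set. Without the Ca/+ muscle Uqcrc1 (adjusted p = 0.0533), Uqcr11 (0.0767) and Uqcrq (0.161) did not pass either, and Uqcrq was also lost without the Ca/Ca muscle and without Ca/Ca sarcoma 2.

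Cycs, the gene of somatic cytochrome c itself, was at 10.09 to 10.87 in sarcomas (median 10.34), against 11.36 in Ca/Ca muscle and 11.64 in Ca/+ muscle. It fell by 1.11 (SE 0.20, 2.16-fold, adjusted p = 0.00553) with no overlap, and did not pass without the Ca/+ muscle (-0.97, adjusted p = 0.0737).

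Complex IV spread the widest. Of its 16 genes 7 fell and 9 did not pass, with a median of -0.47 and a range of -5.78 to 0.33. The 3 muscle forms had the largest falls of all 81 genes. Cox8b was at 5.13 to 6.53 in sarcomas (median 5.83), against 11.58 in Ca/Ca muscle and 11.49 in Ca/+ muscle. Cox7a1 was at 3.97 to 5.18 in sarcomas (median 4.99), against 10.15 in Ca/Ca muscle and 10.31 in Ca/+ muscle. Cox6a2 was at 6.19 to 7.75 in sarcomas (median 7.55), against 11.87 in Ca/Ca muscle and 11.76 in Ca/+ muscle. For each form the lowest muscle lay at least 4 log2 units above the highest sarcoma. The falls were 5.78 for Cox8b (SE 0.35, 54.8-fold, adjusted p = 2.47e-05), 5.42 for Cox7a1 (SE 0.31, 43-fold, adjusted p = 1.91e-05) and 4.54 for Cox6a2 (SE 0.38, 23.3-fold, adjusted p = 0.000141), and all passed without either muscle. The level of Cox7a1 in Ca/Ca sarcoma 1 (3.97) was within the range of the background floor of the arrays, 3.68 to 4.09, taken as the 90th percentile of 67 receptor genes of smell and taste. The muscle fibre markers also fell against muscle, with a median difference of -4.50, and their part in the falls of these 3 genes was not tested.

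None of the 3 common partners of these subunits passed. Cox6a1 was at 12.44 to 12.70 in sarcomas (median 12.64), against 12.21 in Ca/Ca muscle and 12.65 in Ca/+ muscle. Cox7a2 was at 11.38 to 12.11 in sarcomas (median 11.65), against 11.85 in Ca/Ca muscle and 12.18 in Ca/+ muscle. Cox8a was at 9.46 to 10.07 in sarcomas (median 9.68), against 9.42 in Ca/Ca muscle and 10.18 in Ca/+ muscle. In all 3 the groups overlapped, and for Cox6a1 and Cox8a the whole range of sarcomas lay above the Ca/Ca muscle. Cox6a1 differed by 0.17 (95% interval -0.18 to 0.51, adjusted p = 0.467), Cox8a by -0.08 (-0.59 to 0.43, 0.837) and Cox7a2 by -0.33 (-0.78 to 0.12, 0.264). The sign of Cox6a1 turned under housekeeping (-0.22), ribosomal protein (-0.080) and cyclic loess (-0.15) scaling, and Cox7a2 passed as a fall under these scalings (-0.72, -0.58 and -0.63).

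Within each array the muscle form was set against its common form, and the change in that difference was tested over the samples. Cox8b changed by -5.70 relative to Cox8a (51.9-fold), Cox7a1 by -5.09 relative to Cox7a2 (34.2-fold) and Cox6a2 by -4.71 relative to Cox6a1 (26.1-fold), with SDs over the 6 sarcomas of 0.34, 0.42 and 0.62. Each pair was lower in 6 of 6 sarcomas than in both muscles, with an exact two-sided permutation p of 0.0357, the smallest that 6 against 2 arrays allow, also when adjusted over the 3 pairs. The pairs were chosen with this pattern known. Since both genes of a pair are read on the same array, a shift common to that array leaves the value unchanged.

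**Figure D2:**
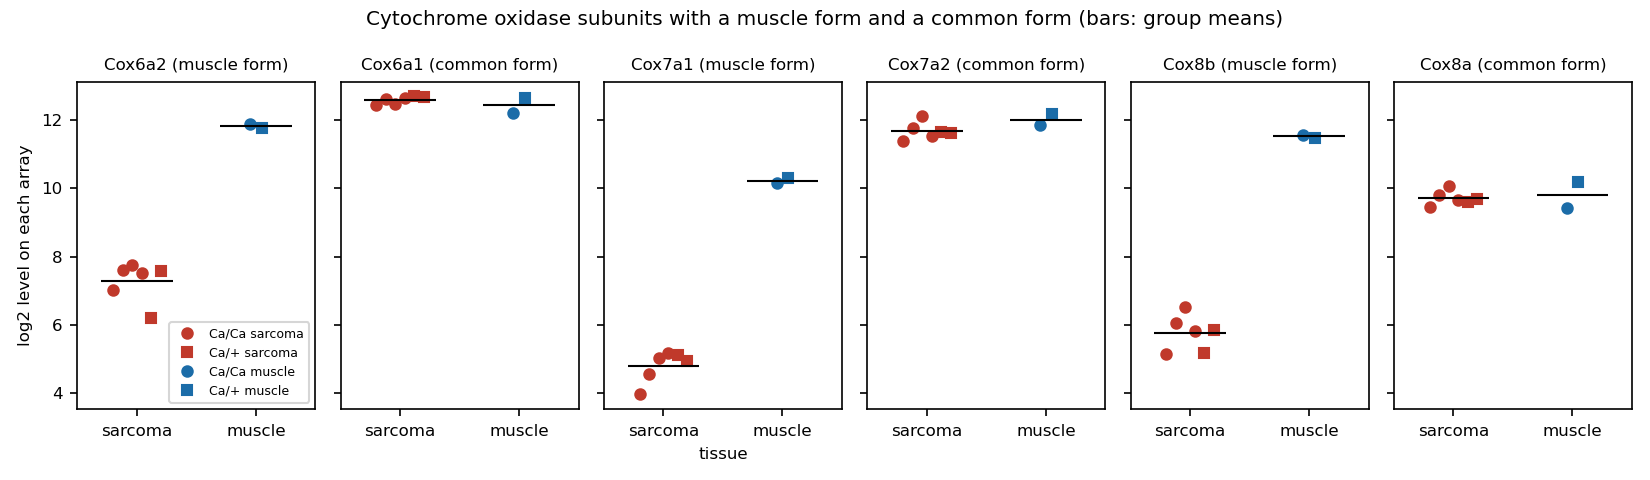
Log2 level on each array of the 3 muscle forms of complex IV and their common forms, with sarcomas (red) left of muscles (blue), Ca/Ca samples as circles, Ca/+ samples as squares and group means as bars. The muscle forms are at or below 7.75 in every sarcoma and above 10 in both muscles, while the common forms of sarcoma and muscle overlap.

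The other tissue-specific forms of complex IV did not pass. Cox4i2, known as a lung form, differed by 0.06 (adjusted p = 0.8) with levels of 4.41 to 4.75 in sarcomas, against 4.36 in Ca/Ca muscle and 4.52 in Ca/+ muscle, close to the background floor. The testis form Cox6b2 was at 5.34 to 5.97 in sarcomas, against 4.92 in Ca/Ca muscle and 5.50 in Ca/+ muscle (0.33, adjusted p = 0.322). The testis form Cox8c was at 5.88 to 6.39 in sarcomas, against 6.53 in Ca/Ca muscle and 6.33 in Ca/+ muscle (-0.20, adjusted p = 0.422). Both lay above the floor on every array. The signs of Cox4i2 and Cox6b2 turned under housekeeping centring (-0.33 and -0.054), and that of Cox4i2 also under ribosomal protein centring (-0.19).

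Of the 7 remaining genes of complex IV, 4 fell and 3 did not pass, with a median of -0.67. Cox5a, a subunit on the matrix side, was at 11.34 to 11.69 in sarcomas (median 11.37), against 12.31 in Ca/Ca muscle and 12.43 in Ca/+ muscle. Its fall by 0.94 (adjusted p = 0.00171) was the largest of these 7 on the probe sets used, and the groups did not overlap. Cox4i1, the common form of subunit 4, fell by 0.85 (adjusted p = 0.0185, lost without the Ca/Ca muscle at 0.0638 and without the Ca/+ muscle at 0.157). The zinc-binding Cox5b fell by 0.82 (adjusted p = 0.00247) and Cox6b1 by 0.61 (0.00756), the call on Cox6b1 being lost without the Ca/+ muscle (0.0816). Cox6c did not pass (-0.67, adjusted p = 0.099), nor did Cox7a2l, which is known to help join complexes III and IV (-0.09, 0.858). Cox7c (-0.03, adjusted p = 0.958) was at 3.98 to 4.60 in sarcomas, against 3.89 in Ca/Ca muscle and 4.78 in Ca/+ muscle, near the background floor on every array. The other probe set of Cox7c was dimmer still, with a mean of 2.50 in sarcomas and 2.22 in muscles, so these arrays carry little information on Cox7c, and its sign turned under cyclic loess scaling (0.070).

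In complex V, 14 of 17 genes fell and 3 did not pass, with a median of -0.77, and only 2 falls reached 2-fold. Atp5g1, one of 3 genes for the same c-ring protein, was at 8.87 to 9.30 in sarcomas (median 9.15), against 10.49 in Ca/Ca muscle and 10.28 in Ca/+ muscle. Atp5g3 was at 11.69 to 12.14 in sarcomas (median 11.91), against 12.54 in Ca/Ca muscle and 12.51 in Ca/+ muscle. Atp5g2 was at 9.83 to 10.60 in sarcomas (median 10.34), against 10.86 in Ca/Ca muscle and 10.70 in Ca/+ muscle. All sarcomas lay below both muscles for the 3 genes, but by different amounts. Atp5g1 fell by 1.27 (SE 0.15, 2.42-fold, adjusted p = 0.000709) and Atp5g3 by 0.62 (SE 0.14, adjusted p = 0.012), while Atp5g2 differed by -0.52 (SE 0.21) and did not pass (adjusted p = 0.0983). These differences between the 3 genes were not tested against each other.

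In the catalytic head and central stalk of ATP synthase, Atp5a1 (-0.95, adjusted p = 0.00316), Atp5b (-0.97, 0.00415), Atp5c1 (-0.95, 0.00285) and Atp5e (-1.23, 0.0034) fell, and Atp5d did not pass (-0.28, 0.188). The alpha and beta subunits Atp5a1 and Atp5b, which together form the catalytic sites, thus had nearly equal differences on the probe sets used. Further probe sets of Atp5a1 gave -1.20 and -0.16. Atp5d, the delta subunit of the stalk, was at 10.85 to 11.23 in sarcomas (median 11.15), against 11.32 in Ca/Ca muscle and 11.41 in Ca/+ muscle, a narrow gap without overlap. All 4 genes of the peripheral stalk fell: Atp5o (-0.998), Atp5j (-0.84), Atp5pb (-0.67) and Atp5h (-0.62). Among the small membrane subunits, Atp5l (-0.80), Atp5k (-0.77), Atp5mpl (-0.70) and Atp5j2 (-0.63) fell, and Atp5md did not pass (-0.54, adjusted p = 0.115) with Ca/Ca sarcoma 3 (9.80) above both muscles (9.77 and 9.78). Of the 14 falls, 9 were lost without 1 array, namely Atp5b, Atp5j, Atp5l, Atp5k, Atp5mpl, Atp5pb, Atp5j2, Atp5h and Atp5g3. All 9 were lost without the Ca/+ muscle and 7 without the Ca/Ca muscle, and Atp5mpl, Atp5j2 and Atp5l also without several single sarcomas.

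A total of 154 probe sets were named for the 81 genes, and 45 genes had more than 1. Of 64 further probe sets above the background floor, 61 gave a difference of the same sign as the one used. The 3 of opposite sign, for Cox5b, Cox7a2l and Ndufb9, had differences of 0.03, 0.08 and 0.01. For 21 genes the probe set used has a name ending in _x_at or _s_at, which marks probes that may also match related sequences, so their levels are less certain.

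**Figure D3:**
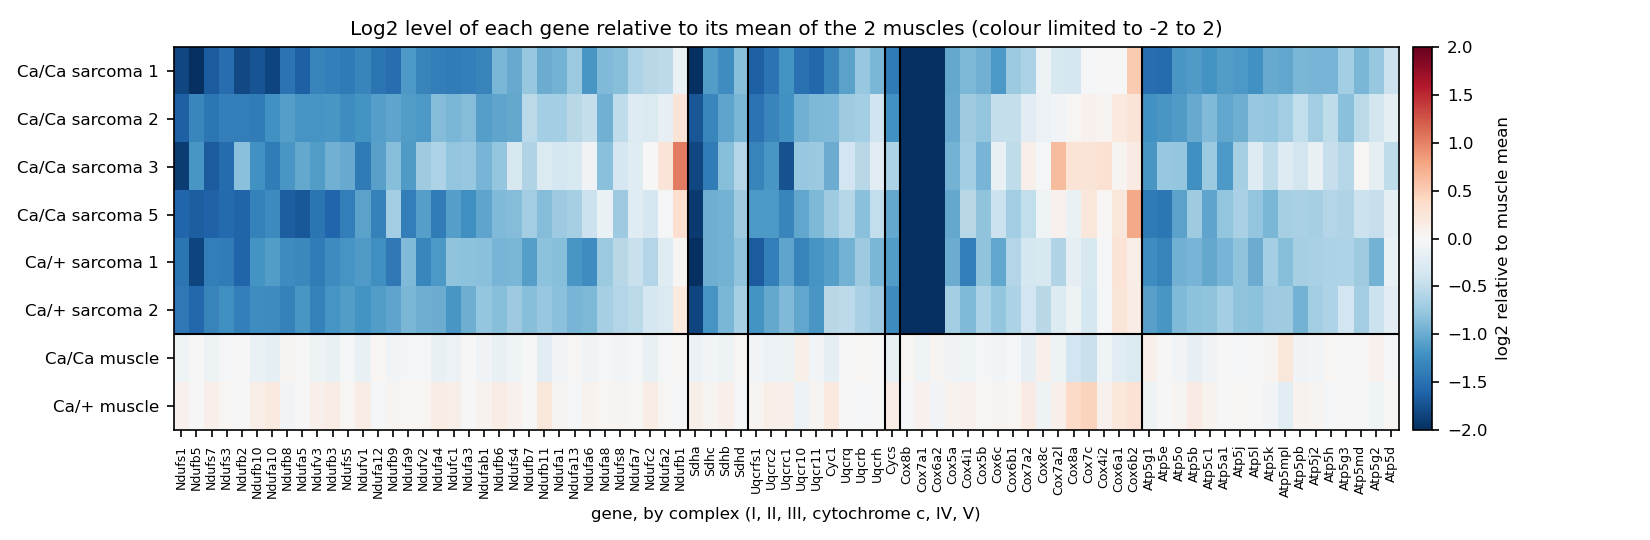
Log2 level of each gene on each array relative to its mean in the 2 muscles, with arrays down the page (sarcomas above muscles) and genes across by complex; colours are limited to -2 to 2, so the 3 muscle forms of complex IV lie beyond the scale. Ca/Ca sarcoma 1 is the deepest blue through most genes, and Ca/Ca sarcoma 3 is paler in complexes IV and V but not in Ndufs1, Ndufs7 or Uqcrc1.

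The sarcomas were not alike in these genes. Ca/Ca sarcoma 1 was the lowest of the 6 in 44 genes (54.3%, against 16.3% of all genes) and the highest in 0. Ca/Ca sarcoma 3 was the highest in 50 genes (61.7%, against 21.4% of all genes). Relative to the muscle mean, the median over the 81 genes was -1.14 in Ca/Ca sarcoma 1, -0.91 in Ca/Ca sarcoma 2, -0.74 in Ca/Ca sarcoma 3, -0.87 in Ca/Ca sarcoma 5, -0.95 in Ca/+ sarcoma 1 and -0.84 in Ca/+ sarcoma 2. Every sarcoma was thus below muscle by the median, and Ca/Ca sarcomas held both ends of the order. The muscle fibre markers did not follow this order, averaging 7.94 in Ca/Ca sarcoma 1, 8.65 in Ca/Ca sarcoma 3 and, at the extremes, 6.89 in Ca/+ sarcoma 1 and 9.08 in Ca/Ca sarcoma 2. The median SD over the sarcomas was 0.21 for the 81 genes and 0.24 for all genes.

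Ca/Ca sarcoma 3 did not rank alike across the complexes. Its median was -0.81 over the accessory subunits of complex I, -0.76 over complex III, -0.09 over complex IV and -0.51 over complex V, the highest of the 6 sarcomas in each. Over the 6 core subunits of complex I it was -1.47, the lowest of the 6, where the others were at -1.43 to -1.21. Single genes, picked after their values were seen, did not all follow the median of their complex. In Ca/Ca sarcoma 3, Uqcrc1 was at 9.55 and Atp5b at 10.86, the lowest sarcoma value of each, while Atp5l was at 10.999 and Ndufb11 at 11.25, the highest of each. These ranks are descriptions of 1 array.

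**Figure D4:**
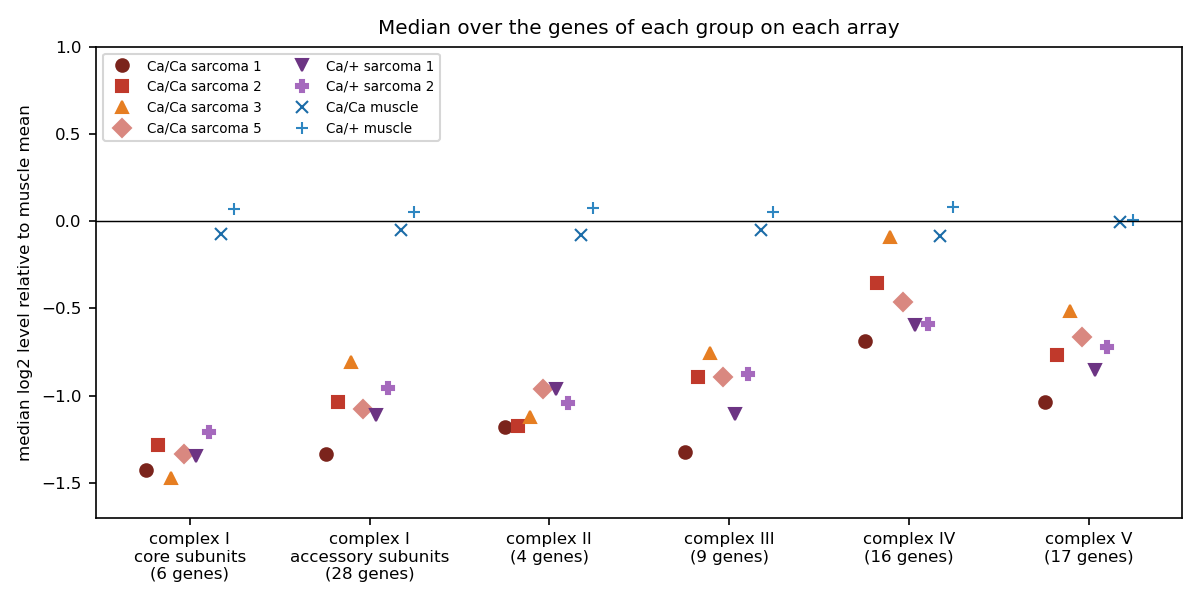
Median log2 level relative to the muscle mean over the genes of each complex, 1 point per array, with the sarcomas of each group left of the muscles. Ca/Ca sarcoma 1 is at or near the bottom throughout, and Ca/Ca sarcoma 3 is the highest sarcoma in the accessory subunits of complex I and in complexes III, IV and V, but the lowest in the core subunits.

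Ca/Ca and Ca/+ sarcomas were compared over the 6 tumours alone. None of the 81 genes passed in limma's fit, as was so for all 12393 genes (0%), and 3 of the 81 and 971 of all genes had an unadjusted p under 0.05. The median difference, Ca/Ca minus Ca/+, was 0.01 over the 81 genes and 0.00 over all. The smallest p-values among genes higher in Ca/Ca were those of Cox7c (mean 4.47 in Ca/Ca and 3.996 in Ca/+ sarcomas, difference 0.47), Ndufa13 (11.25 and 10.76, 0.49) and Cox8c (6.35 and 5.99, 0.35), and among genes lower in Ca/Ca those of Ndufa9 (9.60 and 9.90, -0.29), Uqcrc1 (9.92 and 10.32, -0.40) and Ndufs1 (8.34 and 8.62, -0.29). Their limma adjusted p-values were 0.618 to 0.677. For Sdha the 95% interval of the genotype difference was -0.30 to 0.45.

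The muscles of the 2 genotypes, 1 each, were compared as values with no test. The median difference, Ca/Ca minus Ca/+, was -0.10 over the 81 genes and -0.01 over all genes. Subunit genes lower by 1.5-fold or more in the Ca/Ca muscle were Cox7c (3.89 in Ca/Ca, 4.78 in Ca/+) and Cox8a (9.42 and 10.18). They made up 2.47% of the subunit genes where 7.21% of all genes were lower, and the next was Cox6b2 (-0.58). None was higher by 1.5-fold, where 9.57% of all genes were, and the highest differences were those of Atp5mpl (0.45), Uqcr10 (0.22) and Atp5g1 (0.22). All 7 adipocyte markers and 4 of the 5 brown fat markers, Dio2 being the exception, were higher in the Ca/+ muscle, and their part was not tested.

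The interaction of tissue and genotype, the Ca/Ca sarcoma-muscle difference minus the Ca/+ one, passed for 0 of the 81 genes in limma's fit. Over all genes 0.00807% passed, a single gene, Eif2s3y of the Y chromosome. It was on average at 2.18 in Ca/Ca and 2.07 in Ca/+ sarcomas, against 2.26 in Ca/Ca and 7.65 in Ca/+ muscle. The Ca/+ muscle thus stood apart from the other groups in a gene of the Y chromosome. A part of sex in the differences between the muscles, and in calls lost without the Ca/+ muscle, was not tested. At an unadjusted p under 0.05 there were 1 of the 81 genes and 895 of all. The 1 was Cox7c (interaction 1.36, adjusted p = 0.318), whose levels lie near the background floor.

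Other lists of mitochondrial genes moved less evenly. The counts of each list are to be read against the 13.2% of all genes that fell and the 13.1% that rose. Of the carriers and porins, which exchange metabolites across the mitochondrial membranes, 5 of 9 measured fell, 1 rose and 3 did not pass, with a median of -1.10 that was -0.57 without the Ca/+ muscle. Of the falls, those of Vdac3 and Slc25a3 were lost without the Ca/+ muscle, and that of Slc25a3 also without the Ca/Ca muscle. The muscle ADP/ATP carrier Slc25a4 was at 10.37 to 11.21 in sarcomas, against 12.66 in Ca/Ca muscle and 12.69 in Ca/+ muscle, and fell by 1.71 (adjusted p = 0.00109). Its common counterpart Slc25a5 was at 11.16 to 11.66 in sarcomas, against 10.71 in Ca/Ca muscle and 11.06 in Ca/+ muscle, and did not pass (0.47, adjusted p = 0.0796). Ucp3, the uncoupling protein of muscle, fell by 1.94 (adjusted p = 0.00104) and the porin Vdac1 fell by 1.27 (0.000492). The gene that rose was Atpif1, whose protein inhibits ATP synthase when it runs in reverse. It was at 9.19 to 9.91 in sarcomas, against 8.83 in Ca/Ca muscle and 7.66 in Ca/+ muscle, a rise of 1.21 (SE 0.30, adjusted p = 0.02) that was 1.79 without the Ca/Ca muscle and 0.63, not past the threshold (adjusted p = 0.213), without the Ca/+ muscle.

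Of 34 assembly factors, which build the complexes but are not part of them, 9 fell, 1 rose and 24 did not pass, with a median of -0.41. Without the Ca/+ muscle 5 of these falls were lost, those of Tmem70, Uqcc3, Ndufaf3, Acad9 and Foxred1. The fall of Acad9 was also lost without the Ca/Ca muscle. The largest falls were those of Ecsit (-1.53, adjusted p = 0.000404) and Ndufaf5 (-1.16, 0.00278) for complex I and of Uqcc1 (-1.45, 0.000404) for complex III. Sco2, a copper chaperone of complex IV, rose by 0.80 (adjusted p = 0.0134), but not without the Ca/Ca muscle (0.0788) or the Ca/+ muscle (0.0916), nor under housekeeping (0.42, 0.113) or ribosomal protein centring (0.56, 0.0858). Among 29 genes of import, chaperones and membrane organisation 7 fell, 2 rose and 20 did not pass, with a median of 0.11 that turned negative under the other scalings. The mitofusins Mfn2 (-1.98, adjusted p = 0.000725) and Mfn1 (-1.13, 0.00137), which fuse mitochondria, and Chchd3, a protein of the cristae junctions (-1.53, 0.00212), fell most. The other 4 falls, of Trap1, Timm23, Immt and Timm17a, were lost without the Ca/+ muscle. Those of Timm23, Immt and Timm17a were also lost without the Ca/Ca muscle. The translocase genes Timm8a1 (1.18, adjusted p = 0.00869) and Timm22 (0.60, 0.0241) rose. Without the Ca/+ muscle neither passed (0.086 and 0.173), and Timm22 did not pass without the Ca/Ca muscle (0.0864) either. Nor did Timm22 pass under housekeeping centring (0.22, adjusted p = 0.245), ribosomal protein centring (0.35, 0.207) or cyclic loess (0.40, 0.087).

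Among 17 regulators of mitochondrial genes 3 fell, 3 rose and 11 did not pass, counts to be read against the 13.2% and 13.1% of all genes that fell and rose. The median was -0.13, and 0.14 without the Ca/+ muscle. Ppargc1a, the coactivator PGC-1 alpha, was at 3.28 to 3.71 in sarcomas, at or under the background floor, against 5.47 in Ca/Ca muscle and 5.20 in Ca/+ muscle. The limma difference of Ppargc1a, from values as deposited, was -1.92 (adjusted p = 8.15e-05). Counted against the mean floor of the sarcomas (3.84), its level was at least 2.83-fold lower in sarcoma, a bound that was not itself tested. Ppargc1b fell by 1.84 (adjusted p = 0.0111, lost at 0.127 without the Ca/+ muscle) and the receptor gene Esrra by 0.99 (0.00848, lost at 0.0968 without the Ca/+ muscle). The transcription factor genes Nrf1 (0.59, adjusted p = 0.00917), Yy1 (0.67, 0.0101) and Myc (1.24, 0.0211) rose. None of these 3 rises passed under housekeeping or ribosomal protein centring, which left differences of 0.20 to 0.99, and each was lost without 1 muscle. Gabpa, whose protein binds the ETS motif marked in the promoters, differed by 0.29 (adjusted p = 0.33), and Tfam, a factor of mitochondrial DNA, by -0.28 (0.201).

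**Figure D5:**
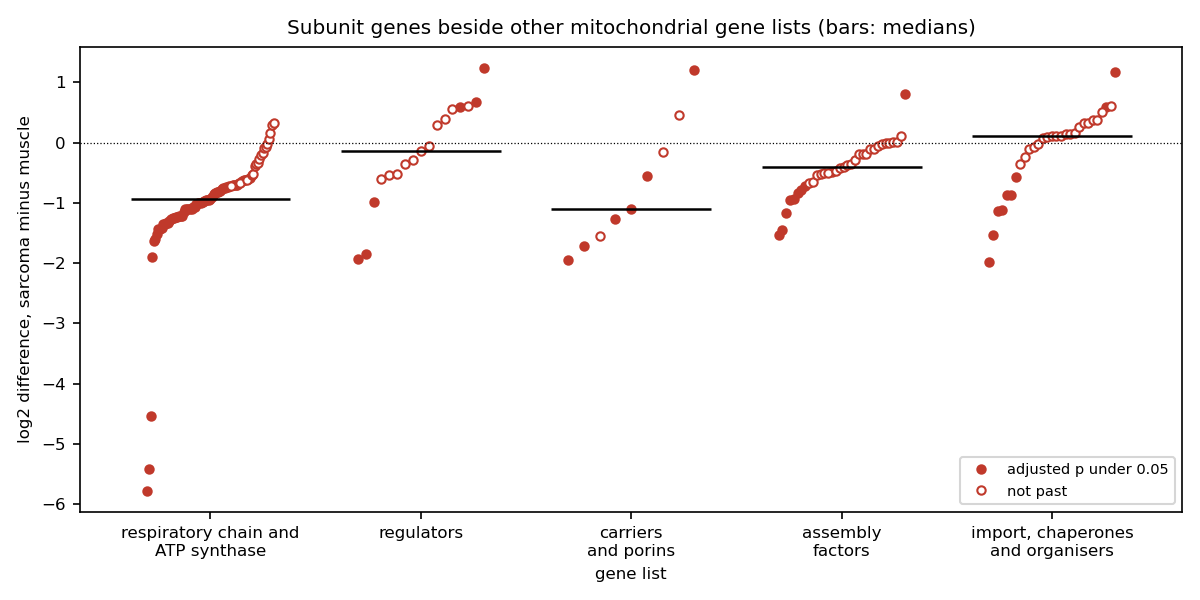
Log2 difference, sarcoma minus muscle, of every measured gene in 5 lists of mitochondrial genes, sorted within each list, with filled points past an adjusted p of 0.05, open points not past and bars at the medians. The subunit genes have a median of -0.93, carriers and porins -1.10 (-0.57 without the Ca/+ muscle), assembly factors -0.41, regulators -0.13 (0.14 without the Ca/+ muscle) and the import list 0.11, a sign that turns under each other scaling.

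Scaling shifted these values. Of the housekeeping genes 4 of 12 rose, none of them without the Ca/+ muscle, and Tbp not without the Ca/Ca muscle either. Centring the arrays on housekeeping genes moved the median of all genes to -0.36 and that of the 81 genes to -1.31. Centring on ribosomal protein genes gave -0.22 and -1.17, the distance between the medians being fixed by the centring. Under cyclic loess the medians were 0.01 and -1.20. The 81 genes then held 73, 71 and 71 falls, and 0 rises under each. The median of the import list turned negative under all 3 scalings (-0.28, -0.14 and -0.14), and 23, 19 and 14 assembly factors fell. Of the regulators 8, 5 and 5 fell and 0, 0 and 2 rose. These counts are to be read against those over all 12393 genes, where falls also grew in number under each scaling. As deposited 1630 fell and 1626 rose, and under housekeeping centring 3900 fell and 730 rose. Under ribosomal protein centring 2456 fell and 695 rose, and under cyclic loess 1830 fell and 1157 rose.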

How the data were processed

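The authors deposited 1 table of log2 expression values for 22690 probe sets on 8 arrays, made with RMA (background correction, scaling of the arrays to 1 distribution and summary per probe set) per the submitters' processing notes; no version is recorded there. Neither hybridisation batches nor scan dates are recorded for these arrays here, so no batch could be tested. RMA fixes each array's distribution, so a change in total RNA is not measured.

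Probe sets with 1 gene symbol in the platform annotation (20380, without 64 control probe sets) were reduced to the brightest per gene. Groups came from the sample titles. Sarcomas were compared with muscles over 8 arrays, Ca/Ca with Ca/+ sarcomas over 6, and their interaction over 4 groups, with limma 3.58.1 in R 4.3.3 (lmFit and eBayes, Benjamini-Hochberg over 12393 genes, threshold 0.05). With 1 muscle per genotype, or 1 left after leaving out the other, its spread was taken from the other arrays. Pairs of isoforms were compared by exact permutation. The procedure was tested on simulated data. Python 3.11.15 with matplotlib 3.10.9 drew the figures.

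Alternatives were the mean of a gene's probe sets, filters on dim genes, housekeeping and ribosomal protein centring, cyclic loess, genotype as a covariate, the arrays of 1 genotype alone, eBayes with trend and robust settings, and leaving out each array. The genes, lists and tests were chosen with earlier results of these data known. Named genes were all isoform genes with Sdha to Sdhd, Cyc1 and Cycs, the 3 largest and 3 smallest absolute differences of each complex, and every gene that did not pass, overlapped or lost its call without 1 array. For genotype they were the 3 smallest p-values in each direction, for the muscles the 3 largest differences in each direction, and for other lists the genes that rose and the 3 largest falls. Other genes named were chosen after their values were seen.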

Additional observations from a re-analysis of the deposited data

Results flagged for a closer look

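Each value here was the highest or the lowest of its group, and its gap to the nearest other sample took up a larger share of the group's range than Dixon's 95% limit. Chance gives about 1 such value in 20 groups, and 2 groups were examined for each of the 81 genes. In Ca/Ca sarcoma 5, Ndufa8 was at 10.81, the highest of the 6 sarcomas and of the 4 Ca/Ca sarcomas, and Ndufa9 at 9.42, the lowest of the 4. In Ca/Ca sarcoma 1, Ndufa7 was at 10.37, the lowest of the 4 Ca/Ca sarcomas, and Atp5h at 10.66, the lowest of the 6 sarcomas. In Ca/Ca sarcoma 3, Atp5j2 was at 11.55, the highest of the 6 sarcomas, and Cox4i2 at 4.75, the highest of the 6 and of the 4. In Ca/+ sarcoma 2, Cox5a was at 11.69, the highest of the 6 sarcomas. Without Ca/Ca sarcoma 3 the fall of Atp5j2 still passed, and without Ca/Ca sarcoma 5 that of Ndufa8 did.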

How the results depend on the processing

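The number of arrays, and of muscles above all, limits these results. Of the 81 subunit genes, 63 changed between sarcoma and muscle, and leaving out 1 array gave 36 (without the Ca/+ muscle) to 66 (without Ca/Ca sarcoma 3). With Ca/Ca arrays alone 14 fell and with Ca/+ arrays alone 12 did, fits that rest on 1 muscle and fewer sarcomas. The other alternatives gave 61 to 73. No gene that had passed changed sign. Signs turned for genes near 0. Cox4i2 was at -0.33 under housekeeping centring, -0.19 under ribosomal protein centring, -0.11 with Ca/+ arrays alone and -0.028 to 0.14 without 1 array. Cox6a1 was at -0.22, -0.080 and, under cyclic loess, -0.15, and at -0.051 to 0.38 without 1 array. Cox6b2 was at -0.054 under housekeeping centring and -0.15 with Ca/+ arrays alone, and Ndufb1 at -0.10 under housekeeping centring. With Ca/Ca arrays alone Cox7a2l was at 0.19, Cox7c at 0.57 and Cox8a at 0.33. Cox7c was at 0.13 with the mean of its probe sets and 0.070 under cyclic loess. Without 1 array Cox7a2l ranged over -0.23 to 0.018, Cox7c over -0.47 to 0.42 and Cox8a over -0.45 to 0.30. The cause of these turns was not tested. Leaving out 1 array gave the isoform pairs -4.98 to -4.43 (Cox6a2), -5.20 to -4.99 (Cox7a1) and -6.12 to -5.28 (Cox8b), and without a muscle the exact permutation p could not go below 0.143. Between genotypes 0 subunit genes passed under every alternative in limma, and with the tumour number as a replicate block 0 did as well. The labels do not say whether the numbers pair the tumours, so they were treated as names. Deviations from the group means correlated at -0.19 for number 1 and 0.29 for number 2. These values cannot decide whether tumours are paired, because the deviations of 2 Ca/+ sarcomas from their mean are always equal and opposite. The muscles carry no number, so no block was fitted against muscle. The interaction passed for 0 genes under every alternative run.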
